A study of Rattus norvegicus with 12 samples.

Results

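The comparison is between the hematoma of a 5.0 mm femoral defect (nonunion, 3 libraries) and the hematoma of a 1.5 mm defect (delayed healing, 3 libraries), 6 of the 12 RNA-seq libraries of the study. The 6 libraries were chosen by their titles, estimated reads were summed per gene symbol, and 12114 of 17379 genes and unnamed transcripts had enough reads to be tested. All 6 came from male rats of the SAS Fischer strain that weighed 200 to 225 g, and no allele, drug or implant is named for them. The study also holds 3 hematomas of a 0.5 mm defect (normal healing) and 3 pieces of intact femur (preOP). The time between surgery and collection is not given in the sources used here. Nothing in the labels tells if the 3 libraries of a group came from 3 rats, so p-values measure the spread between these samples, which may be technical.

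A fracture hematoma is the clot that fills a gap in bone. Its cells are cut off from blood flow, and low oxygen stabilises the HIF transcription factors, which switch on glycolytic enzymes and VEGF-A. VEGF-A acts on receptors of endothelial cells, and the vessels that grow in bring oxygen, pericytes and bone-forming cells. The pair of defects asks what distinguishes the clot of a gap that does not bridge from that of a gap that bridges late.

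The 6 libraries held 18587661 to 24325162 estimated reads, with 11449 to 12134 genes at 10 or more reads. Levels are given as reads per 1e6 after TMM scaling (CPM), for libraries 1, 2 and 3 of a group in that order, and where 3 values stand against 3 others the delayed values come first. Of the 6 libraries, 2 stood apart from their groups. In nonunion 2, ribosomal RNA took 72.2% of the reads (1.49% or less in the others) and a pair of unnamed transcripts took 8.22%, which left 4.75 M other reads (M, 1e6). Of its reads outside ribosomal RNA, 2.38% fell on 18 adipocyte genes, against at most 0.245% elsewhere. In delayed 2, 9.43% of such reads fell on the mature muscle list, and 0.971% or less did so in the others. Of the osteoblast and bone matrix list, the markers Ibsp, Bglap, Sp7 and Alpl were low, at most 4.56 CPM in each library. Sp7 stood at 0.096, 0 and 0.077 CPM in delayed 2, nonunion 2 and nonunion 3, where 3 reads stand for 0.144, 0.438 and 0.115 CPM. The whole list, which holds matrix genes of other cells too, summed to 14450 to 36040 CPM. Globin genes took 0.0327% (nonunion 2) to 2.96% (delayed 1) of all reads, and the share in nonunion 2 is lowered by its ribosomal RNA. On the CPM scale the globin gene Hba-a1 stood at 345 CPM in nonunion 2, near the 402 CPM of nonunion 1. Leucocyte markers were plain in each library, with Ptprc, the pan-leucocyte gene, at 121 to 434 CPM and Csf1r, of macrophages, at 261 to 683 CPM.

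**Figure D1:**
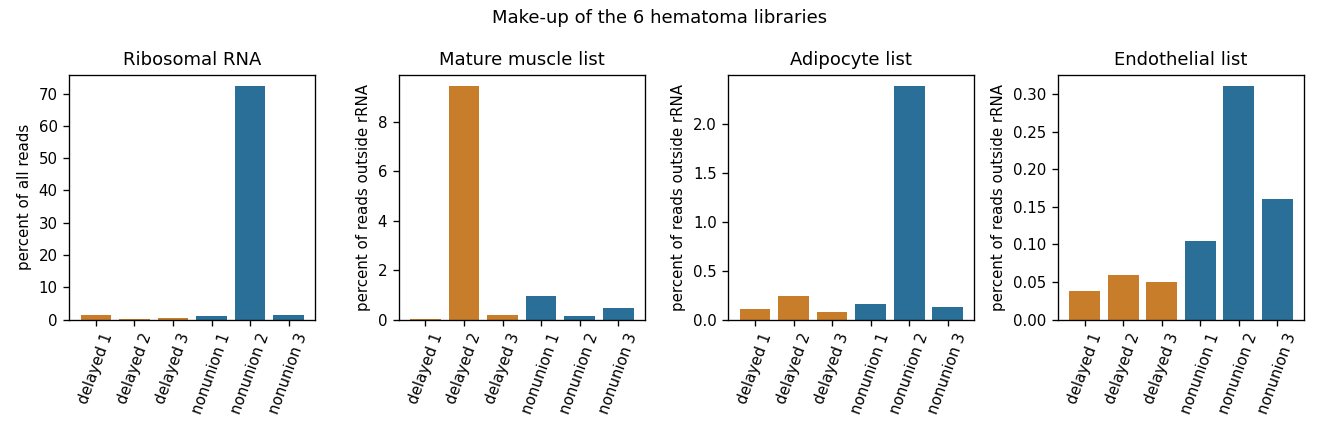
Bars show, for each of the 6 libraries (delayed in orange, nonunion in blue), the percent of all reads on ribosomal RNA and the percent of reads outside ribosomal RNA on the mature muscle, adipocyte and endothelial gene lists. Nonunion 2 stands out for ribosomal RNA (72.2%) and adipocyte genes (2.38%), delayed 2 for muscle genes (9.43%), and each nonunion bar of the endothelial panel is above each delayed bar.

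Across all 12114 genes, edgeR's quasi-likelihood test called 0 genes higher (0.0% of those tested) and 0 lower (0.0%) at an adjusted p below 0.05, and the smallest adjusted p was 0.967. At an unadjusted edgeR p below 0.05 there were 580 genes, 429 higher in nonunion (3.54%) and 151 lower (1.25%). DESeq2 on the same 6 libraries called 61 genes higher (0.476%) and 12 lower (0.0936%). The median log2 fold change of nonunion over delayed was -0.0017 over all genes, with 49.8% of genes above 0. The values below are therefore given by library, and no gene named is called by edgeR's test of the 6 libraries. For 670 genes (5.53%) each nonunion library was above each delayed library, and for 392 genes (3.24%) each was below. These shares are the background for the counts that follow.

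Genes of the blood vessel lining read higher in the nonunion hematomas. The summed level of 14 endothelial genes was 300.1, 533 and 366 CPM in delayed and 766, 2152 and 1129 CPM in nonunion. All 14 had a log2 fold change above 0, with a median of 2.17, beside a median of -0.0017 over all genes tested. In 10 of the 14 each nonunion library was above each delayed library (background 5.53%). In bulk tissue, fewer cells of a type and less RNA per cell cannot be told apart.

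Pecam1, the platelet and endothelial adhesion molecule CD31, stood at 29.1, 96.4 and 44.1 CPM in delayed 1, 2 and 3 and 109, 429 and 235 CPM in nonunion 1, 2 and 3. The groups did not overlap, although nonunion 1 was close to delayed 2, and the log2 fold change was 2.19 (SE 0.66, edgeR unadjusted p = 0.014). Esam, an adhesion protein of endothelial junctions, was even within delayed, at 27.4, 30.02 and 31.02 CPM, and stood at 64.3, 130.5 and 87.1 CPM in nonunion. Each nonunion value of Esam was above 64 CPM and each delayed value below 32 CPM (log2 fold change 1.67, SE 0.32, DESeq2 adjusted p = 0.0102). Cdh5, the cadherin of endothelial junctions, read 4.59, 55.9 and 27.2 against 72.5, 204 and 141 CPM. Its lowest value was in delayed 1 and its highest in nonunion 2.

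The receptors of the vessel lining had the same order of groups with different margins. Kdr, the main VEGF-A receptor, stood at 4.45, 32.5 and 16.5 CPM in delayed 1, 2 and 3 and 32.6, 128 and 75.1 CPM in nonunion 1, 2 and 3, so that delayed 2 and nonunion 1 were level while the other libraries were far apart. Tie1, an endothelial receptor kinase, read 71.4, 45.9 and 58.7 against 119, 168 and 119.8 CPM (log2 fold change 1.21, SE 0.29). Eng, the TGF-beta co-receptor endoglin, read 126, 62.2 and 118 against 175, 266 and 153 CPM (log2 fold change 0.96, SE 0.38). Robo4, a receptor of endothelial guidance, was low in delayed, at 1.04, 6.11 and 4.12 CPM, and stood at 11.3, 48.7 and 30.4 CPM in nonunion. In Flt1, the decoy VEGF receptor, and Tek, the receptor of angiopoietins, delayed 2 lay above nonunion 1 and the groups overlapped. The same held for Emcn and Clec14a, a pair of endothelial surface glycoproteins.

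Cldn5, the claudin of tight endothelial junctions, stood at 0.717, 4.62 and 1.61 CPM in delayed 1, 2 and 3 and 9.002, 46.3 and 16.7 CPM in nonunion 1, 2 and 3. Plvap, which forms the diaphragms of fenestrated capillaries, was the member with the highest fold in the list, at 1.29, 3.42 and 6.21 against 15.7, 193 and 22.98 CPM. Its nonunion values were led by nonunion 2, and the log2 fold change of 4.40 (SE 1.19) was 2.30 without delayed 2 and nonunion 2. Vwf, the clotting factor stored by endothelial cells, read 7.56, 42.5 and 11.2 against 45.96, 169 and 57.3 CPM. DESeq2 called Plvap, Esam, Cldn5 and Robo4 of the 14, beside 0.476% of the genes it tested called higher.

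Nonunion 2, the library with adipocyte genes, was the highest of the 6 for 14 of the 14 endothelial genes. Without it and delayed 2 the median log2 fold change of the list was 2.30, all 14 were above 0, and all 14 had non-overlapping libraries, where 28.9% of all genes did with so few libraries. Leaving out each library in turn gave medians of 1.43 to 2.95. Delayed 2, the library with muscle genes, was the highest of the delayed libraries for 10 of the 14. The part of adipose or muscle tissue in these levels was not tested further.

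**Figure D2:**
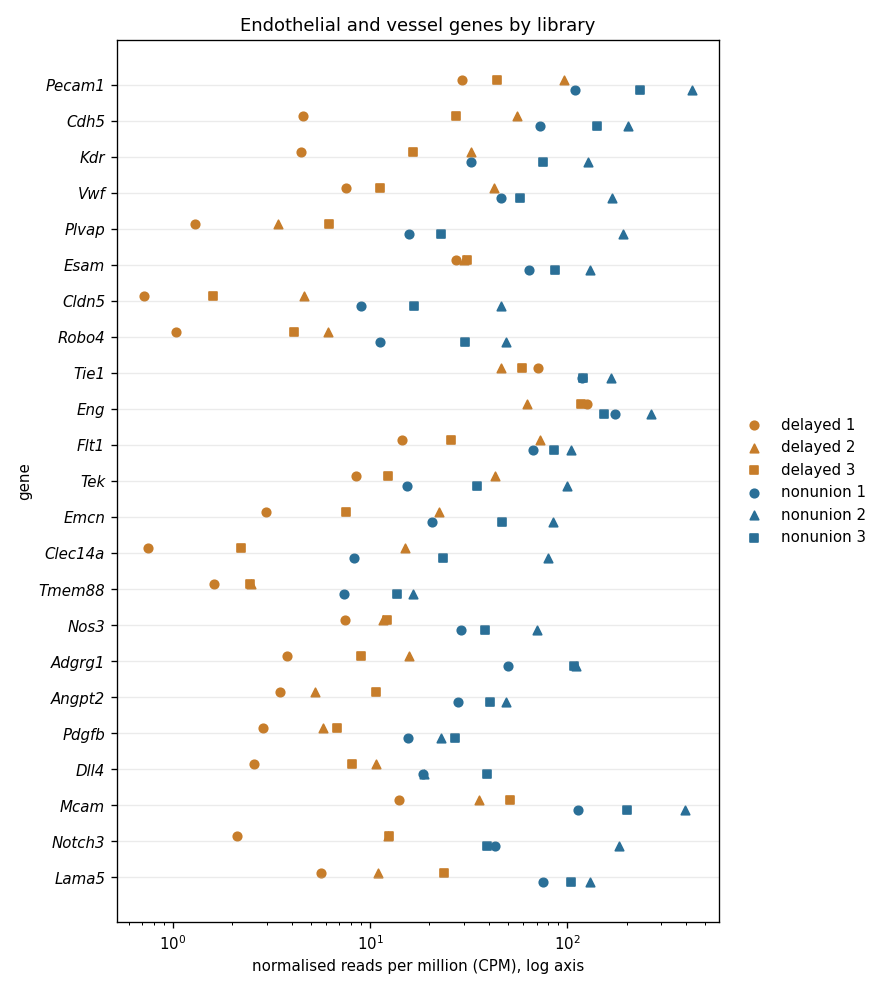
Each point is the level of a gene in 1 library, in CPM on a log axis, with delayed in orange, nonunion in blue and the symbol marking the library number. For Esam, Tie1, Cldn5, Robo4 and Plvap each blue point lies to the right of each orange point, and for Flt1, Tek, Emcn and Clec14a delayed 2 overlaps with nonunion 1.

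Of the 12 higher genes with the smallest unadjusted p, picked by rule among those with no overlap, Esam, Angpt2 and Fst are in the gene lists and the others are in none. Tmem88, a membrane protein that dampens Wnt signalling, stood at 1.61, 2.50 and 2.47 CPM in delayed 1, 2 and 3 and 7.35, 16.5 and 13.7 CPM in nonunion 1, 2 and 3 (log2 fold change 2.51, SE 0.45, DESeq2 adjusted p = 0.000938). The groups of Tmem88 were far apart for so low a level. Nos3, the endothelial nitric oxide synthase, read 7.46, 11.6 and 12.2 against 28.8, 70.1 and 38.4 CPM. Adgrg1, an adhesion receptor coupled to G proteins, read 3.80, 15.8 and 8.98 against 50.2, 110.2 and 108 CPM (log2 fold change 3.23, SE 0.61). Lama5, the laminin alpha-5 chain of vessel basement membranes, read 5.66, 11.02 and 23.8 against 75.3, 130.3 and 104 CPM, and the lowest nonunion value was more than 3 times the highest delayed value.

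The other members of this set were spread over several functions. Hip1r, a clathrin adaptor of endocytosis, was even within each group: 8.85 ± 2.26 CPM (SD, n = 3) in delayed and 25.8 ± 2.39 CPM (SD, n = 3) in nonunion. Tspan9, a tetraspanin, read 13.8, 30.7 and 21.6 against 64.8, 91.2 and 91.995 CPM (log2 fold change 1.91, SE 0.36). Pald1, which encodes paladin, read 3.73, 6.88 and 5.72 against 24.1, 21.3 and 56.7 CPM. In nonunion its highest library was number 3, not number 2. Mall, a lipid raft protein, read 1.15, 2.26 and 3.18 against 9.52, 19.1 and 25.3 CPM. Adcy4, an adenylyl cyclase, read 27.3, 17.3 and 23.98 against 53.97, 71.2 and 58.2 CPM. For Tspan9, Pald1, Hip1r and Adgrg1 the difference was no smaller without delayed 2 and nonunion 2, with log2 fold changes of 2.09, 3.04, 1.67 and 3.57. It was smaller for Esam, Angpt2, Lama5, Nos3, Adcy4, Fst, Tmem88 and Mall. For Nos3 it went from 2.13 to 1.72 and for Adcy4 from 1.42 to 1.07. A fit of 7 libraries leaves out delayed 2 and nonunion 2 and adds the 0.5 mm hematomas for the estimate of spread. There, Adgrg1 and Tspan9 passed an adjusted edgeR p of 0.05.

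Among the ligands and receptors of vessel growth the members did not go one way. Of 18 tested, 11 had a log2 fold change above 0, with a median of 0.10. In 4 each nonunion library was above each delayed library (background 5.53%). Without delayed 2 and nonunion 2 the direction turned, with 6 of the 18 above 0 and a median of -0.19, and over fits that leave out 1 library the median ran from -0.35 to 0.42. Angpt2, which loosens vessels for sprouting, stood at 3.51, 5.29 and 10.8 CPM in delayed 1, 2 and 3 and 27.9, 48.9 and 40.8 CPM in nonunion 1, 2 and 3 (log2 fold change 2.58, SE 0.49, DESeq2 adjusted p = 0.00364). Pdgfb, the endothelial signal that recruits pericytes, read 2.87, 5.77 and 6.81 against 15.5, 22.9 and 26.9 CPM (log2 fold change 2.08, SE 0.43). Dll4, the Notch ligand of sprout tips, read 2.58, 10.7 and 8.12 against 18.6, 18.7 and 39.03 CPM. For these 3 signals the lowest nonunion library was above the highest delayed one. Aplnr, the apelin receptor, read 5.05, 19.8 and 13.8 against 23.4, 186 and 51.1 CPM, with nonunion 2 far above the others. Pgf, placental growth factor, went the other way, at 44.6, 12.6 and 77.2 against 12.6, 2.63 and 15.6 CPM (log2 fold change -2.11, SE 0.83), and its groups overlapped.

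Genes of pericytes and smooth muscle, the cells that wrap vessels, had log2 fold changes above 0 for 11 of 12 tested (median 1.45). In 4 of the 12 the groups did not overlap, all higher in nonunion (background 5.53%). Mcam, shared by endothelium and pericytes, stood at 14.1, 35.6 and 51.5 CPM in delayed 1, 2 and 3 and 114, 394 and 202 CPM in nonunion 1, 2 and 3. Notch3, the Notch receptor of mural cells, read 2.12, 12.4 and 12.5 against 42.8, 182 and 39.3 CPM. Both were called by DESeq2 (adjusted p = 0.0135 and 0.0336), beside 0.476% of the genes it tested called higher. Cspg4, the pericyte proteoglycan NG2, read 13.8, 23.9 and 22.1 against 36.998, 108 and 29.6 CPM. Tagln, an actin-binding protein of smooth muscle, read 45.8, 60.8 and 193 against 204, 241 and 279 CPM. Delayed 3 lay close below nonunion 1 for Tagln. Without delayed 2 and nonunion 2 the median of the 12 was 1.09.

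Genes of the response to low oxygen and of glycolysis read lower in the nonunion hematomas. Of 31 tested, 30 had a log2 fold change below 0, with a median of -1.13 (all genes -0.0017), and in 10 each nonunion library was below each delayed library (background 3.24%). The summed level was 26840, 21420 and 25660 CPM in delayed and 20020, 4369 and 13180 CPM in nonunion. Nonunion 2 was the lowest of the 6 libraries for 25 of the 31.

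Vegfa, the growth factor that acts on the receptor Kdr, stood at 573, 361 and 704 CPM in delayed 1, 2 and 3 and 156, 211 and 74.4 CPM in nonunion 1, 2 and 3. Each nonunion library was below each delayed library, on average 546 ± 173 CPM (SD, n = 3) in delayed and 147 ± 68.8 CPM (SD, n = 3) in nonunion (log2 fold change -1.89, SE 0.49, edgeR unadjusted p = 0.0072, DESeq2 adjusted p = 0.0369). As a group, the nonunion libraries thus had lower Vegfa and higher levels of its receptor Kdr. By library the order was not inverse: within nonunion, number 2 had the highest level of both (Vegfa 211 and Kdr 128 CPM). Without delayed 2 and nonunion 2 the log2 fold change of Vegfa was -2.54. Bnip3, a mitophagy receptor induced by HIF, stood at 615, 743 and 581 CPM in delayed and 311, 200.1 and 156 CPM in nonunion. Its groups were far apart, with a log2 fold change of -1.54 (SE 0.38, DESeq2 adjusted p = 0.0139). Egln3, an oxygen-sensing prolyl hydroxylase that is itself a HIF target, read 262, 149 and 185 against 72.1, 5.55 and 22.3 CPM. Its nonunion values were spread widely, from nonunion 1 down to nonunion 2. Pdk1, the kinase that keeps pyruvate out of mitochondria, read 101, 77.7 and 85.4 against 49.9, 27.1 and 28.2 CPM (log2 fold change -1.33, SE 0.32).

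The 12 lower genes picked by rule from all genes included Mxi1, Vldlr, Gbe1 and Ccng2, which are in none of the gene lists and are placed here by hand. Mxi1, an antagonist of MYC, stood at 88.7, 77.7 and 69.9 CPM in delayed 1, 2 and 3 and 37.03, 32.8 and 32.7 CPM in nonunion 1, 2 and 3. The values were even within each group (log2 fold change -1.20, SE 0.22, DESeq2 adjusted p = 0.00217). Vldlr, a lipoprotein receptor, read 81.1, 117 and 130.0 against 47.3, 38.7 and 32.3 CPM. Gbe1, the glycogen branching enzyme, read 135, 233 and 128 against 69.1, 37.1 and 43.7 CPM, with delayed 2 the highest. Ccng2, a cyclin that restrains division, read 82.02, 95.2 and 78.2 against 35.9, 40.7 and 37.7 CPM (log2 fold change -1.16, SE 0.22). These 4 were called by DESeq2, and without delayed 2 and nonunion 2 their log2 fold changes were -1.24, -1.47, -1.29 and -1.18. They were picked by p and lack of overlap in the same libraries, so these calls are no separate support.

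The letters ACGTG are the core of the element that HIF binds, and stretches of the promoters of Bnip3, Gbe1 and Mxi1 are shown because they carry it. The windows run from 250 bases before to 50 bases after a gene's start and come from RefSeq (build GRCr8), read 5′ to 3′ on the gene's strand. The stretches below lie before the start, and the capitals mark ACGTG on either strand.
Bnip3, chr1:203155013-203155112, minus strand: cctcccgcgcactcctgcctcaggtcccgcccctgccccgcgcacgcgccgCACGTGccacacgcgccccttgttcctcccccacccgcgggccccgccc
Gbe1, chr11:22181176-22181275, plus strand: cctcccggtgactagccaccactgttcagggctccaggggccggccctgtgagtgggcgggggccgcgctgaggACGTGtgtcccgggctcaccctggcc
Mxi1, chr1:262348392-262348491, plus strand: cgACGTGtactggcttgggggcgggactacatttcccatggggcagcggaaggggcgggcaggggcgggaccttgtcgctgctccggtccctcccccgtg
In Bnip3 the match is the palindrome CACGTG, which reads ACGTG on both strands, 99 bases before the start. In Gbe1 it begins 26 bases and in Mxi1 248 bases before the start. ACGTG on either strand was found in 19 of 35 windows (54.3%) of 30 genes of the hypoxia list, against 24.9% of 9739 windows of the genes tested and 19.3% of all 33469 windows. Among genes with no overlap between the groups, 36.9% of 298 windows of those lower in nonunion held it and 20.4% of 540 windows of those higher. The pair of windows of Vegfa and the single windows of Hk2, Tpi1, Egln3, Epas1, Vldlr, Ccng2 and Hspa1a do not hold these letters, which says nothing of other regions of the genes. The hypoxia list was drawn up from genes known for their link to HIF, so its share is a description. Some of its members are among the genes lower with no overlap, so the share of those genes is not separate from it.

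Of the enzymes of glycolysis some separated the groups and others did not. Hk2, a hexokinase, stood at 139, 151 and 115 CPM in delayed 1, 2 and 3 and 99.7, 21.3 and 30.9 CPM in nonunion 1, 2 and 3, so that nonunion 1 was not far below delayed 3. Tpi1, the triose phosphate isomerase, read 1524, 1295 and 1318 against 868, 237 and 689.8 CPM. Pgk1, the phosphoglycerate kinase, read 2197, 1339 and 2010.4 against 1322, 171 and 1043 CPM. Aldoc, an aldolase, read 43.2, 18.7 and 37.7 against 16.4, 3.50 and 13.2 CPM. For these 3 enzymes nonunion 2 was the lowest library, and for Pgk1 and Aldoc delayed 2 was close above nonunion 1. Aldoa, the aldolase that is also abundant in muscle, read 2169, 3814 and 1923 against 1866, 605 and 1355 CPM, with its highest value in delayed 2, the library with muscle genes. Gapdh, the glyceraldehyde phosphate dehydrogenase, read 4254, 6239.6 and 4550.4 against 4354, 629 and 3312 CPM. Ldha, which makes lactate, read 2906, 1979.8 and 2344 against 2059, 406 and 1386 CPM. These last enzymes overlapped between the groups, with nonunion 2 far below the rest. Without it and delayed 2 their log2 fold changes were -0.26 and -0.67 in place of -0.86 and -0.91. P4ha2, a collagen prolyl hydroxylase, read 187, 142 and 470.0 against 123, 37.2 and 82.3 CPM.

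Without delayed 2 and nonunion 2 the median of the 31 was -1.07, and over all fits that leave out 1 library it ran from -1.57 to -0.95. The count of members with no overlap was 24 without delayed 2 (background 9.6%), 23 without nonunion 1 (background 9.56%) and 25 without delayed 2 and nonunion 2 (background 17.8%). The member with a log2 fold change above 0 was Epas1, which encodes HIF-2 alpha and is expressed in endothelium, at 4.27, 68.4 and 11.4 against 38.4, 125 and 38.3 CPM (log2 fold change 1.26, SE 1.04). Ankrd37, a HIF target, read 35.5, 7.02 and 24.8 against 7.75, 2.19 and 4.12 CPM. Ddit4, an inhibitor of mTOR signalling induced by low oxygen, read 153, 46.2 and 209 against 54.3, 24.1 and 33.1 CPM. In both the groups overlapped through delayed 2.

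**Figure D3:**
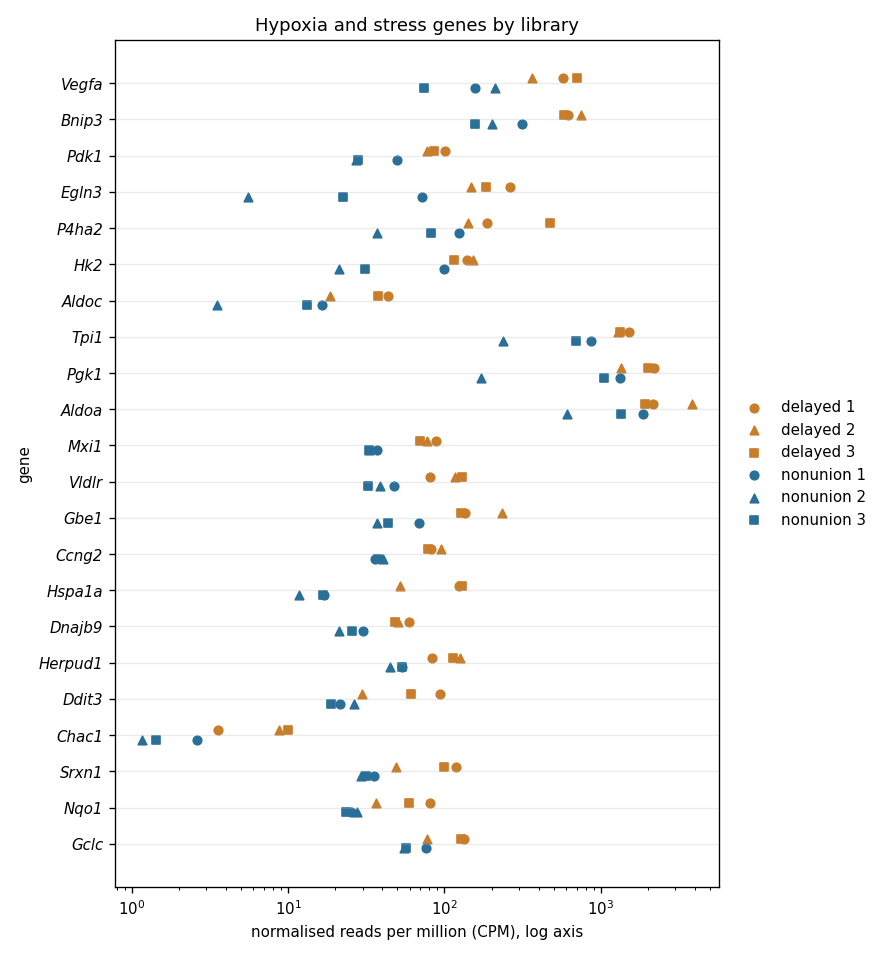
Each point is the level of a gene in 1 library, in CPM on a log axis, with delayed in orange, nonunion in blue and the symbol marking the library number. For each of the genes drawn the blue points lie to the left of the orange ones, with nonunion 2 farthest left for Egln3, Tpi1, Pgk1 and Aldoa.

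Genes of protein stress also read lower in nonunion. Hspa1a, the stress-induced HSP70 chaperone, stood at 124, 51.7 and 129.8 CPM in delayed 1, 2 and 3 and 16.9, 11.8 and 16.6 CPM in nonunion 1, 2 and 3, and it had the smallest unadjusted p of the lower genes (log2 fold change -2.75, SE 0.42, edgeR unadjusted p = 0.00042). The lowest delayed value was more than 3 times the highest nonunion value. Hspa1a was the 1 gene called lower (0.00816% of those tested) by edgeR's test without delayed 2 and nonunion 2 (adjusted p = 0.042, log2 fold change -2.98). It was called by DESeq2 as well (adjusted p = 5.55e-05). Hspa1a was picked by its p in the libraries that these fits reuse, so the calls are no separate support. Hspa1b, its near-identical neighbour, read 51.2, 6.73 and 40.4 against 0, 0 and 2.19 CPM, where 3 reads stand for 0.11, 0.438 and 0.115 CPM in nonunion 1, 2 and 3. Reads of the pair cannot be told apart with confidence, so the split between them is uncertain.

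Of 29 heat shock and unfolded protein response genes tested, 25 had a log2 fold change below 0 (median -0.46) and 8 did not overlap, all lower in nonunion (background 3.24%). Dnajb9, a chaperone partner in the endoplasmic reticulum, read 59.5, 50.4 and 47.9 against 30.02, 21.3 and 25.7 CPM. Herpud1, which serves the breakdown of misfolded proteins there, read 82.6, 126 and 113 against 53.8, 45.1 and 53.5 CPM. The nonunion values of both lay in a narrow range. Ddit3, the stress factor CHOP, read 93.9, 29.6 and 61.2 against 21.5, 26.4 and 18.8 CPM (log2 fold change -1.47, SE 0.44). Chac1, which degrades glutathione, read 3.58, 8.75 and 10.03 against 2.61, 1.17 and 1.42 CPM. Atf4, the factor upstream of both, read 328, 239.9 and 319.8 against 202, 152 and 223 CPM (log2 fold change -0.62, SE 0.30), a smaller gap than theirs. For Hsph1, an HSP110 chaperone, the libraries of the groups were 172, 157 and 168 and 149, 37.2 and 124 CPM, and nonunion 2 was far below the rest. Nonunion 2 was the lowest library for 23 of the 29, and without it and delayed 2 the median was -0.29.

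Of 21 genes of the NRF2 response to oxidants, 17 had a log2 fold change below 0 (median -0.39, and -0.48 without delayed 2 and nonunion 2). In 4 the groups did not overlap, all lower in nonunion (background 3.24%). Srxn1, which repairs oxidised peroxiredoxins, stood at 119, 48.6 and 98.7 CPM in delayed 1, 2 and 3 and 35.2, 29.05 and 31.3 CPM in nonunion 1, 2 and 3 (log2 fold change -1.48, SE 0.37). The nonunion values of Srxn1 were even, and delayed 2 was the nearest of the delayed values to them. Nqo1, a quinone reductase, read 80.5, 36.5 and 59.002 against 25.2, 27.6 and 23.6 CPM. Gclc, of glutathione synthesis, read 134, 77.1 and 128 against 76.1, 55.3 and 57.1 CPM, where nonunion 1 came next to delayed 2. Me1, the malic enzyme, read 76.6, 264 and 78.7 against 55.04, 69.9 and 45.8 CPM. Hmox1, heme oxygenase, overlapped between the groups at 3475, 1037 and 3203 against 1212, 2139 and 1858 CPM. Srxn1, Hspa1a and Ddit4 were among the 4 genes called lower (0.0317% of those tested) by edgeR in the 7-library fit, where the adjusted edgeR p of Srxn1 was 0.0326.

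The remaining genes of the 12 lower ones were Abhd18, at 34.9, 33.3 and 29.5 against 13.998, 13.3 and 11.3 CPM (log2 fold change -1.34, SE 0.23), RGD1309362 and Nadk2. RGD1309362 read 82.3, 56.4 and 75.9 against 34.6, 33.9 and 23.6 CPM. Nadk2, the mitochondrial NAD kinase, read 37.7, 50.9 and 36.03 against 17.05, 17.5 and 18.4 CPM. All 3 were called by DESeq2, on the same libraries by which they were picked.

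Of 22 immediate early genes 2 did not overlap, both lower in nonunion (background 3.24%). Among them was Fos, a component of AP-1, at 125, 35.6 and 59.2 against 32.99, 14.2 and 15.1 CPM. Of 25 interferon-induced genes 18 had a log2 fold change below 0 (median -0.38). With no overlap, 2 were lower (background 3.24%) and 1 higher (background 5.53%), so each count rests on few genes. Rsad2, the antiviral enzyme viperin, read 69.4, 20.6 and 42.4 against 2.54, 7.44 and 10.7 CPM (log2 fold change -2.68, SE 0.67, DESeq2 adjusted p = 0.0202). Bst2, the antiviral protein tetherin, read 45.9, 27.7 and 49.6 against 52.9, 71.7 and 132 CPM and was the 1 member higher with no overlap. Ifit3, another antiviral gene, read 341, 20.8 and 103 against 17.9, 10.7 and 29.8 CPM and overlapped.

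Red cell genes read lower in nonunion, with 14 of 15 tested below 0 and 5 lower with no overlap (background 3.24%). Hba-a1, an alpha chain of hemoglobin, stood at 7866, 641 and 1217 against 402, 345 and 522 CPM. Hbb, the beta chain, read 10108, 1354 and 1320.3 against 587, 435 and 787 CPM. Delayed 1 was far above the other libraries in both. Without it the log2 fold changes were -1.14 and -1.15, in place of -2.94 and -2.82. Alas2, the first enzyme of heme synthesis in red cells, read 183, 22.5 and 19.4 against 9.81, 10.5 and 14.5 CPM. The alpha globin copies Hba-a1 and Hba-a2 are near-identical, so the split of reads between them is uncertain.

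Muscle genes gave a pattern that was not shared by the libraries of either group. Myog, the factor of muscle differentiation, stood at 1.18, 22.3 and 3.03 CPM in delayed 1, 2 and 3 and 129, 0.438 and 296 CPM in nonunion 1, 2 and 3. It was high in nonunion 1 and 3 and near 0 in nonunion 2, so the groups overlapped (log2 fold change 4.01, SE 1.92). Myod1, the factor of muscle commitment, read 3.44, 12.5 and 2.92 against 32.3, 1.75 and 58.5 CPM. Cdh15, the cadherin of myoblasts, read 2.72, 9.28 and 2.88 against 51.7, 0 and 83.5 CPM, where 3 reads stand for 0.438 CPM in nonunion 2. Nonunion 1 and 3 were thus above all delayed libraries in these 3 genes and nonunion 2 was below all of them. Actc1, the actin of embryonic muscle, read 1.004, 46.7 and 1.31 against 312, 0.292 and 1049 CPM. Tnnt2, an embryonic troponin T, read 1.40, 7.60 and 2.43 against 105, 0.438 and 229.9 CPM. Myh3, the embryonic myosin, read 0.609, 134 and 0.449 against 67.97, 0.292 and 226 CPM and was also high in delayed 2.

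Of 15 myogenic and embryonic muscle genes tested, 11 had a log2 fold change above 0 (median 1.70) and 0 did not overlap. Nonunion 2 was the lowest library for 11 of the 15. Without delayed 2 and nonunion 2, 14 of the 15 were above 0, with a median of 4.54. In the 7-library fit, which also leaves them out, 8 of the 15 were called higher, beside 0.443% of all genes. Delayed 2 was the highest delayed library for 14 of the 15. Leaving out delayed 2 and nonunion 2 thus favours higher values of these genes in nonunion, so calls of fits without them are no separate support. In the edgeR fit of 4 libraries, 5 genes were called higher (0.0408% of those tested), among them Ankrd1, Tnni1, Mybph and Slc29a1. Ankrd1, a stress-responsive muscle protein, read 3.66, 103 and 5.20 against 504, 1.31 and 359.8 CPM. Tnni1, the slow troponin I, read 0.394, 551 and 0.486 against 46.5, 1.02 and 79.9 CPM, with its highest value in delayed 2. Mybph, a myosin-binding protein, read 10.8, 49.8 and 11.6 against 158, 14.9 and 209 CPM. In each of these, nonunion 2 lay among or below the delayed libraries. Slc29a1, a nucleoside transporter, read 5.23, 47.2 and 4.41 against 55.3, 15.2 and 66.1 CPM. They were named after their values were seen, as were the myogenic genes above.

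Mature muscle genes were led by delayed 2, the highest library for 24 of 24. Acta1, skeletal actin, stood at 38.2, 10782 and 248 CPM in delayed 1, 2 and 3 and 2032, 170.0 and 736 CPM in nonunion 1, 2 and 3. Myh7, the slow myosin, read 1.29, 8127 and 1.16 against 25.1, 5.69 and 6.97 CPM. The median log2 fold change of the 24 was -2.49 over 6 libraries and 2.89 without delayed 2 and nonunion 2, so its direction depended on those libraries. Over the remaining libraries, nonunion 1 and 3 held 0.971% and 0.484% of their reads outside ribosomal RNA on these genes and delayed 1 and 3 held 0.0311% and 0.186%. The source of these reads was not tested.

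**Figure D4:**
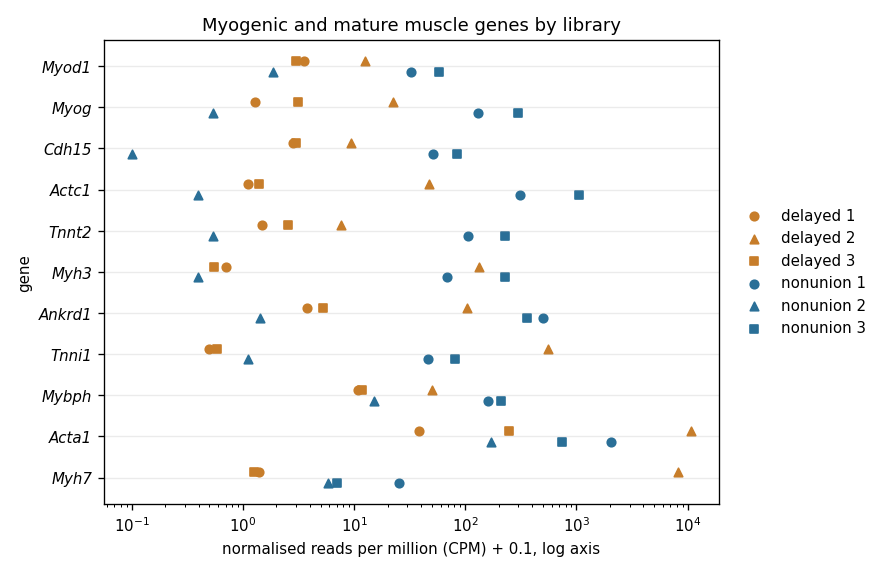
Each point is the level of a muscle gene in 1 library, in CPM plus a small constant on a log axis, with delayed in orange, nonunion in blue and the symbol marking the library number. Nonunion 1 and 3 lie far to the right of delayed 1 and 3 for the genes from Myod1 to Mybph, nonunion 2 lies to the left of the delayed libraries for Myod1, Myog, Cdh15, Actc1, Tnnt2, Myh3 and Ankrd1, and delayed 2 holds the highest values of Acta1 and Myh7.

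Adipocyte genes were led by nonunion 2, the highest library for 15 of 16 tested. Adipoq, the fat cell hormone adiponectin, stood at 0.609, 2.45 and 0.224 CPM in delayed 1, 2 and 3 and 0.367, 2185 and 4.50 CPM in nonunion 1, 2 and 3, and in 5 libraries it did not exceed 4.50 CPM. Fabp4, a fatty acid carrier also made by macrophages and capillaries, read 242, 249 and 145 against 472, 4192 and 403 CPM. Pparg, the master factor of fat cells, read 3.15, 3.17 and 3.11 against 4.70, 161 and 7.93 CPM. Lipe, a lipase, read 1.61, 15.9 and 4.08 against 21.3, 532 and 26.3 CPM, and for these last 3 the groups did not overlap. The median log2 fold change of the list was 2.84, and it was 0.65 without delayed 2 and nonunion 2. Of 19 complement genes, 13 were highest in nonunion 2 as well, 4 in delayed 1 and 2 in delayed 2. C4b, of the classical pathway, read 11.1, 39.7 and 18.2 against 8.78, 2672 and 73.6 CPM. Cfb, of the alternative pathway, read 8.64, 19.6 and 12.8 against 18.5, 553 and 95.4 CPM. None of 19 complement genes was free of overlap (background 5.53% higher and 3.24% lower). An unadjusted edgeR p below 0.05 was found for 5 of them, all higher in nonunion, beside 3.54% of all genes.

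A few growth factor genes of bone repair had no overlap, against a background of 5.53% of all genes higher and 3.24% lower. Of 22 genes of FGF, IGF and EGF signalling, 4 were higher and 1, the EGF receptor ligand Areg, lower with no overlap. Igf1, insulin-like growth factor, read 17.3, 20.2 and 17.8 against 24.1, 166 and 35.8 CPM. Its binding protein Igfbp4 read 31.8, 41.2 and 52.3 against 55.4, 572 and 192 CPM, and Igfbp5 read 9.50, 25.9 and 9.95 against 39.6, 116 and 43.7 CPM. Igfbp7, an IGF-binding related protein of vessels, read 23.4, 52.4 and 40.9 against 62.7, 473 and 165 CPM. Nonunion 2 led all 4, and without it and delayed 2 the log2 fold change of Igf1 was 0.72 in place of 2.03. Of 34 BMP and TGF-beta genes, 3 were higher and 2 lower with no overlap, counts not far from the background. Their median was 0.23, and 0.04 without delayed 2 and nonunion 2. Fst, the activin inhibitor follistatin, stood at 9.07, 11.8 and 14.2 CPM in delayed 1, 2 and 3 and 29.1, 36.5 and 29.02 CPM in nonunion 1, 2 and 3 (log2 fold change 1.43, SE 0.27, DESeq2 adjusted p = 0.0153). Inhbb, which encodes an activin subunit, read 3.84, 3.56 and 7.26 against 18.1, 31.96 and 14.2 CPM (DESeq2 adjusted p = 0.0202). Id3, a BMP target, read 32.8, 14.1 and 40.3 against 50.2, 83.3 and 68.6 CPM. Tgfb2, a TGF-beta ligand, was lower, at 22.8, 53.9 and 31.7 against 22.7, 13.6 and 13.9 CPM, with nonunion 1 level with delayed 1. Of 29 Wnt genes, 4 were higher and 0 lower with no overlap, with a median of 0.37 that was 0.03 without delayed 2 and nonunion 2.

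In the bone and cartilage lists the groups overlapped for each gene. None of 11 osteoblast and bone matrix genes, 5 osteocyte genes, 7 chondrocyte genes and 10 osteoclast genes tested was free of overlap or had an unadjusted edgeR p below 0.05. Over all genes, 5.53% were higher and 3.24% lower with no overlap, so lists this short could hold none. Medians were -0.05, -0.89, -0.04 and -0.45 in that order. With 1 library left out, the osteocyte median ran from -1.34 to -0.25. Of the osteoclast genes, 8 of 10 were below 0. Overlap does not show that these levels were the same. Spp1, osteopontin, which macrophages also make, stood at 12890.0, 4995 and 6497 CPM in delayed 1, 2 and 3 and 14653, 33.7 and 9369 CPM in nonunion 1, 2 and 3, so that nonunion 2 was far below the other 5 libraries (log2 fold change -0.02, SE 1.55). Of 14 fibroblast genes, 2 were lower with no overlap (background 3.24%). Tnc, the wound matrix protein tenascin-C, read 801, 364 and 1303 against 347, 7.15 and 192 CPM (log2 fold change -2.17, SE 1.19). Loxl2, a collagen cross-linking enzyme, read 148, 117 and 393 against 111, 82.9 and 35.95 CPM. In both, nonunion 1 was next to delayed 2. Fn1, fibronectin, read 9934, 4326 and 7592 against 5809, 1639.5 and 1897 CPM and overlapped. Of 19 matrix protease genes and inhibitors, 2 were lower (background 3.24%) and 1 higher (background 5.53%) with no overlap. Among the lower was Mmp19, a metalloproteinase, at 122, 100.3 and 185 against 73.6, 76.2 and 63.6 CPM.

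In most immune cell lists and the cell cycle list the groups overlapped for each gene. None of 17 macrophage, 17 lipid-associated macrophage, 11 mature neutrophil, 18 T and NK lymphocyte, 7 B lymphocyte and 28 cell cycle genes was free of overlap, and 0 of them had an unadjusted edgeR p below 0.05 or a call by DESeq2. Over all genes, 5.53% were higher and 3.24% lower with no overlap. The shares were 3.54% and 1.25% for that p, and 0.476% and 0.0936% for DESeq2 calls. Of the mature neutrophil genes, 10 of 11 had a log2 fold change below 0, with a median of -1.15 that was -1.26 without delayed 2 and nonunion 2 and ran from -3.02 to -0.19 over fits that leave out 1 library. Their summed level varied widely within both groups, at 1675, 126 and 580 CPM in delayed and 849, 77.8 and 119 CPM in nonunion. Of 9 neutrophil granule genes, 8 were below 0 (median -0.91), none was free of overlap and 1 had an unadjusted edgeR p below 0.05. Of the T and NK lymphocyte genes, 14 of 18 were below 0 (median -0.57), and without delayed 2 and nonunion 2 only 1 of the 18 was above 0 (median -1.55). The macrophage median of 0.02 became -0.30 without those libraries, with 2 of 17 above 0, and that of cell cycle genes went from 0.08 to 0.39, with 26 of 28 above 0. Of 9 mast cell, basophil and eosinophil genes, 2 were higher with no overlap (background 5.53%). Kit, the stem cell factor receptor, read 2.29, 3.46 and 3.18 against 6.10, 10.7 and 8.55 CPM. Gata2, a factor that endothelium also expresses, read 1.61, 2.36 and 1.05 against 2.76, 15.2 and 5.23 CPM. The median of that list was 1.50 and turned to -0.64 without delayed 2 and nonunion 2. S100a9, an abundant neutrophil gene, ranged from 32.3 to 458 CPM in delayed and from 21.9 to 265 CPM in nonunion. A p or an overlap that misses the mark does not show that these levels were the same.

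**Figure D5:**
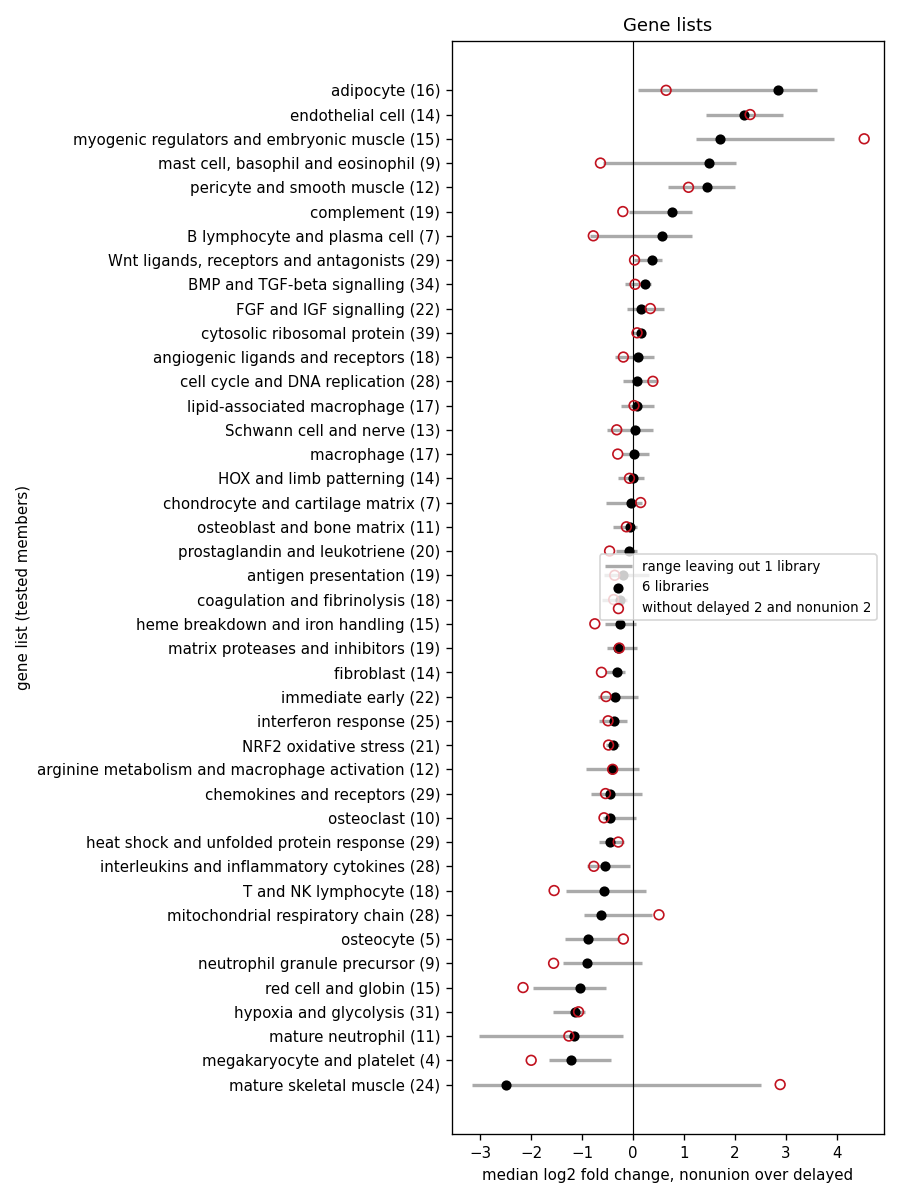
Each row is a gene list with its number of tested members. Black points give the median log2 fold change of nonunion over delayed in 6 libraries, grey lines its range over fits that leave out 1 library, and open red circles the median without delayed 2 and nonunion 2. The endothelial (2.17 and 2.30) and hypoxia (-1.13 and -1.07) lists have close medians in both, while the mature muscle list goes from -2.49 to 2.89.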

How the data were processed

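Per the labels' protocols, libraries were made with the TruSeq RNA kit from 1 ug of Trizol-extracted total RNA. Per the submitters' processing notes, bcl2fastq 1.8.4, FastQC, Trimmomatic, Salmon and the build rn6 were used. Per the file headers, the deposited files give estimated counts, TPM and effective lengths for 18321 RefSeq transcripts. TPM shares its total with ribosomal RNA, so the deposited TPM of Pecam1 in nonunion 2 is 36.4, below the 46.2 of delayed 2. Deposited TPM were not tested.

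Estimated counts were rounded and summed by symbol (17367 transcripts to 16425 symbols of RefSeq's GRCr8 annotation, with 954 unmatched transcripts kept apart). In the 6 libraries 12114 genes passed filterByExpr and were tested with edgeR 4.0.16 (R 4.3.3, TMM scaling, quasi-likelihood F-test, two-sided, Benjamini-Hochberg adjusted, called below 0.05, 4 residual degrees of freedom). The SE is the absolute log2 fold change over the square root of F. Alternatives were DESeq2 1.42.0, limma-voom 3.58.1, other scaling, filters and sets of libraries. The scripts were tested on simulated data. A floor of 3 reads covers counting error only.

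The members, the 42 gene lists and the tests were chosen with earlier results of these data known. The rule for named genes took 12 genes in each direction by the smallest unadjusted p, among those with no overlap between groups and 5 CPM or more in the higher group. It took genes called without delayed 2 and nonunion 2 too, and 3 abundant genes and up to 4 with no overlap per list. A part of these is named. Other named genes complete a count or were chosen after their values were seen.

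Promoter windows were searched on both strands for ACGTG, the E-box CAGCTG, TTCNNNGAA and the interferon-stimulated response element. CAGCTG was in 41.2% of 17 windows of myogenic genes and 15.1% of all windows. TTCNNNGAA was in 36.8% of 19 windows of interferon genes (8.87% of all), and the response element in 57.9% of these (3.92% of all).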

Additional observations from a re-analysis of the deposited data

How the results depend on the processing

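edgeR on 6 libraries called 0 genes in either direction, and 16 of 19 alternatives also called 0. The exceptions were DESeq2 with 61 higher and 12 lower, edgeR without delayed 2 and nonunion 2 with 5 higher and 1 lower, and that fit with the 0.5 mm hematomas added with 56 higher and 4 lower. Leaving out 1 library at a time gave 0 to 0 calls each way. Of the 60 calls of the 7-library fit, 6 were also called by DESeq2, 11 had no overlap in the 6 libraries, and 41 of the 56 higher ones had nonunion 2 below a delayed library. Of the 73 calls of DESeq2, 66 had no overlap. DESeq2 gave no adjusted p to 4560 genes.

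Of 108 named genes, 103 kept their direction in all 19 alternatives. Acta1 turned above 0 with the replicate block (1.34), limma-voom (0.19), library weights (2.29), and without delayed 2 and nonunion 2 in 4 and 7 libraries (3.19 and 3.19). Myh7 did so at 1.67 with the replicate block, 2.36 with weights and 3.63 and 3.63, and Tnni1 at 5.27 with the replicate block, 2.89 with limma-voom, 6.15 with weights and 7.10 and 7.10. Spp1 stood at 0.25 and 0.25 in those fits of 4 and 7 libraries. Over fits that leave out 1 library the ranges were -3.02 to 2.70 for Acta1, -8.74 to 3.30 for Myh7, -2.94 to 6.53 for Tnni1, -0.39 to 7.47 for Myh3 and -0.79 to 0.50 for Spp1. The cause was not tested beyond the shares of muscle reads in delayed 2 and of ribosomal RNA in nonunion 2.

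The endothelial count of 10 of 14 with no overlap (background 5.53%) ran from 10 to 14 with 1 library left out. The background then ran from 8.22% to 15.3%. Without delayed 2 and nonunion 2 the count was 14 (background 28.9%). The hypoxia count of 10 of 31 (background 3.24%) ran from 10 to 24 with 1 library left out (background 5.06% to 9.6%). It was 25 without delayed 2 and nonunion 2 (background 17.8%). These counts use the CPM of all 6 libraries, with no new fit. Both counts and their backgrounds can only stay or grow with fewer libraries.

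The titles give both groups the same replicate numbers. The labels do not say that the numbers pair the samples, so the main fit has no block. Same-numbered libraries deviated together weakly, with correlations of 0.12, 0.065 and 0.106 for numbers 1, 2 and 3. Each library correlated best with its own number, and the highest correlation of unlike numbers was 0.008. Whether the numbers stand for a pairing or a shared batch was not tested. With the replicate block 0 genes were called, and 829 genes had an unadjusted p below 0.05, against 580 without it. Nonunion 2 has 4.75 M reads outside ribosomal RNA and its pair of linked transcripts, so genes of low level are least precise there.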

Other observations

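On a common TMM scale of all 12 libraries, levels of a few of the named genes are given for all groups. The 0.5 mm hematoma and the intact femur are included, with no test. Files of the 0.5 mm hematomas differ in form from the others, so that file form and group cannot be told apart there. Vegfa averaged 105 ± 27.6 CPM (SD, n = 3) in the 0.5 mm hematoma, 586 ± 188 in the 1.5 mm one, 157 ± 72.2 in the 5.0 mm one and 77.9 ± 4.20 in the femur. Hspa1a stood at 44.6, 109, 16.2 and 4.52 CPM in the same order (SD 6.8, 46.8, 3.19 and 2.03). Pecam1 stood at 140.4, 60.7, 274 and 81.2 CPM (SD 14.5, 37.8, 168.7 and 8.38). Angpt2 stood at 29.5, 7.02, 41.8 and 9.66 CPM (SD 5.35, 4.10, 10.9 and 1.47), and Mall at 21.2, 2.36, 19.2 and 1.27 CPM (SD 4.69, 1.10, 8.53 and 0.293).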
